A study of Mus musculus with 32 samples.

Results

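The heat shock chaperones described here are 10 mouse genes taken by name: Hspa1a, Hspa1b, Hspa8, Hsph1, Dnajb1, Dnaja1, Hsp90aa1, Hsp90ab1, Hspd1 and Hspe1. They are 10 of the 45706 gene rows in each table, and all 10 were among the 15186 genes with enough reads to be tested. The rule takes the genes by name and uses no threshold on their values.

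RNA sequencing was done on haematopoietic stem and progenitor cells (HSPCs), sorted from mouse marrow by Kit and Sca1 after exclusion of lineage-marked cells. Each of 4 groups held 4 biological replicates with 1 library table each (n = 4). The comparison between treatments asks how these genes differ 24 h after an injection of lipopolysaccharide (LPS), a bacterial product that drives inflammation. The comparison between histories asks how normal HSPCs exposed to a leukaemia in the same marrow compare with unexposed ones. In all groups the sorted cells were wild-type donor cells (CD45.1+/2+), of which 800000 whole marrow cells went, with 200000 partner marrow cells (CD45.1), into C57BL/6J mice (CD45.2) after lethal irradiation. In naive mice the partner cells were homozygous for rtTA, the doxycycline-dependent activator, and hMLL-AF9-null. In experienced mice they were homozygous for both rtTA and hMLL-AF9, a human leukaemia fusion gene that doxycycline switches on. The remission model was started 6 to 8 weeks after transplantation, with 5 weeks of doxycycline and then 4 weeks of withdrawal, and the design text does not separately say whether naive mice had doxycycline. Naive and experienced mice then received phosphate-buffered saline (PBS) or LPS. The sources used here give neither the age of the mice nor the LPS dose, nor the number of mice behind a replicate.

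Heat shock chaperones bind unfolded or newly made proteins and let them fold, travel or be degraded. In the cytosol, J-domain proteins hand clients to Hsp70, which holds and releases them in cycles driven by ATP and can pass them on to Hsp90, and in mitochondria a barrel of Hspd1 closed by a lid of Hspe1 encloses them. Several of these genes are switched on by heat shock factor 1, which binds repeats of the short unit GAA and its reverse complement TTC in their promoters, while others are made at high levels in unstressed cells. In blood stem cells, which make protein slowly, chaperones are studied as part of the control of protein quality.

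Promoter sequence is shown for members whose windows differ in these repeats, since several of the 10 genes are known targets of 1 factor. RefSeq windows of 300 bases (GRCm38.p6), from 250 before to 50 after an annotated start, were at hand for 7 of the 10 genes. The motifs searched were GAANNTTC and TTCNNGAA, each of which is its own reverse complement and so reads the same on both strands, and the 3-unit runs GAANNTTCNNGAA and TTCNNGAANNTTC, which are each other's reverse complement and contain the shorter motifs. Of 32851 such windows over all genes, 15.1% held at least 1 of the shorter motifs, 0.603% held a 3-unit run and 0.0244% (8 windows) held 4 units in a row. Capitals mark the motif matches in the sequences below, which run 5′ to 3′ on the gene's own strand.
Hspe1: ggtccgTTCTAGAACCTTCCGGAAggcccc
Hsph1 before the start: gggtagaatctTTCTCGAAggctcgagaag
Hsph1 after the start: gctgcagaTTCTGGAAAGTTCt
Dnaja1: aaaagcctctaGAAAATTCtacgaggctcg
Hspa1a: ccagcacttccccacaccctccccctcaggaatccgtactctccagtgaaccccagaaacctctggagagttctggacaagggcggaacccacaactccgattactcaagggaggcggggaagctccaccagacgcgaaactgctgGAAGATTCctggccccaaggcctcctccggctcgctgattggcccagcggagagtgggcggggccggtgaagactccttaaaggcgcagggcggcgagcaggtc
Hspa1b: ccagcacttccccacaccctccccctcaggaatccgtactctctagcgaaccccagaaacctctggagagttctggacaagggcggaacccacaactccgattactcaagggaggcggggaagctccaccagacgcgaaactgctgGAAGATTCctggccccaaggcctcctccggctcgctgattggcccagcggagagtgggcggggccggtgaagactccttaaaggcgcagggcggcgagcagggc
Dnajb1: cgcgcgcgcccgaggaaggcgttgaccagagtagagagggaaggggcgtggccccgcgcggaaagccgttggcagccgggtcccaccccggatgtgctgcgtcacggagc
The Hspe1 stretch (chr1:55088053-55088082, plus strand) carries 4 units in a row, 89 bases before the Hspe1 start. The same 18 bases fall in the second of 2 Hspd1 windows, so the pair accounts for 2 of the 8 such windows. The Hsph1 stretches (chr5:149636351-149636380 and chr5:149636287-149636308, minus strand) carry 1 match 33 bases before the first of 2 annotated starts and a 3-unit run 36 bases after it. The Dnaja1 stretch (chr4:40722333-40722362, plus strand) carries 1 match, and the other 2 Dnaja1 windows carry 0. The Hspa1a and Hspa1b stretches are the 250 bases before each start (chr17:34972157-34972406 and chr17:34959239-34959488, both minus strand). Each carries 1 match 104 bases before the start, and over the whole 300 bases they are identical at 296. Dnajb1 had 0 matches in either of its 2 windows, of which the 110 bases before the first start are printed (chr8:83608065-83608174, plus strand). A match describes letters only, and a window without one says nothing about binding elsewhere.

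Libraries held 7718857 to 22264672 expected counts, and the 10 genes' own counts ran from 149 (Hspa1b) to 92161 (Hspa8) per library. Markers of the sort were present in every library, with Kit at 115 to 232 TPM (transcript abundance scaled for gene length) and Ptprc at 57.3 to 142. The single markers Cd3e (T cells) and Ly6g (mature neutrophils) were at most 0.51 TPM, while the wider lists of these lineages, given with the LPS results, were not near 0. Ly6a, which encodes the gating protein Sca1, averaged 60.4 and 53.7 TPM in the naive and experienced PBS groups and 185 and 172 TPM after LPS. Mitochondrial transcripts made up 5.94% of counts in experienced PBS replicate 4 and 7.30% in experienced LPS replicate 4, against 1.91% to 4.26% in the other libraries. Naive PBS replicate 4 was the lowest of its group for 9 of the 10 chaperones and for 11 of 18 handling and immediate early genes. Naive LPS replicate 2 was the highest of its group for 7 of the 10, and experienced LPS replicate 4 the lowest of its group for 7. For the 10 chaperones, results that rest on these libraries are given with and without them. Single network genes are given with all libraries, and those with an outlying library are listed under the flagged results.

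At rest the chaperones were among the more abundant transcripts of these cells. In naive PBS libraries, 67.8% (Hsph1) to 99.7% (Hspa8) of the tested genes had a lower mean TPM. The 10 genes together made up 3061 to 11315 TPM per library, lowest in naive PBS replicate 4 and highest in naive LPS replicate 2. Hspa8 alone was 40.9% to 54.7% of that sum. In naive PBS libraries, on the TPM scale, Hspa8 led with 2234 ± 633 (SD, n = 4), followed by Hsp90ab1 at 1232 ± 256 and Hsp90aa1 at 696 ± 201. The ranges of Hspa8 and Hsp90ab1 overlapped, whereas those of Hsp90ab1 and Hsp90aa1 did not, and neither did those of Hsp90aa1 and the next gene, Hspe1. Below them came Hspe1 at 179 ± 18.1, Dnaja1 at 154 ± 48.4, Hspd1 at 138 ± 31.2 and Dnajb1 at 112 ± 36.2, then Hspa1b at 67.8 ± 49.7, Hspa1a at 58.0 ± 40.4 and Hsph1 at 25.4 ± 8.56. Within that lower part of the order every pair of neighbours overlapped. The leading 4 genes kept their places in all 4 groups, and Hsph1 was the lowest in each. Dnajb1 ranked above both Hspa1 genes after PBS, below both in the naive LPS group and between them in the experienced LPS group, with ranges that overlapped its neighbours in each.

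**Figure D1:**
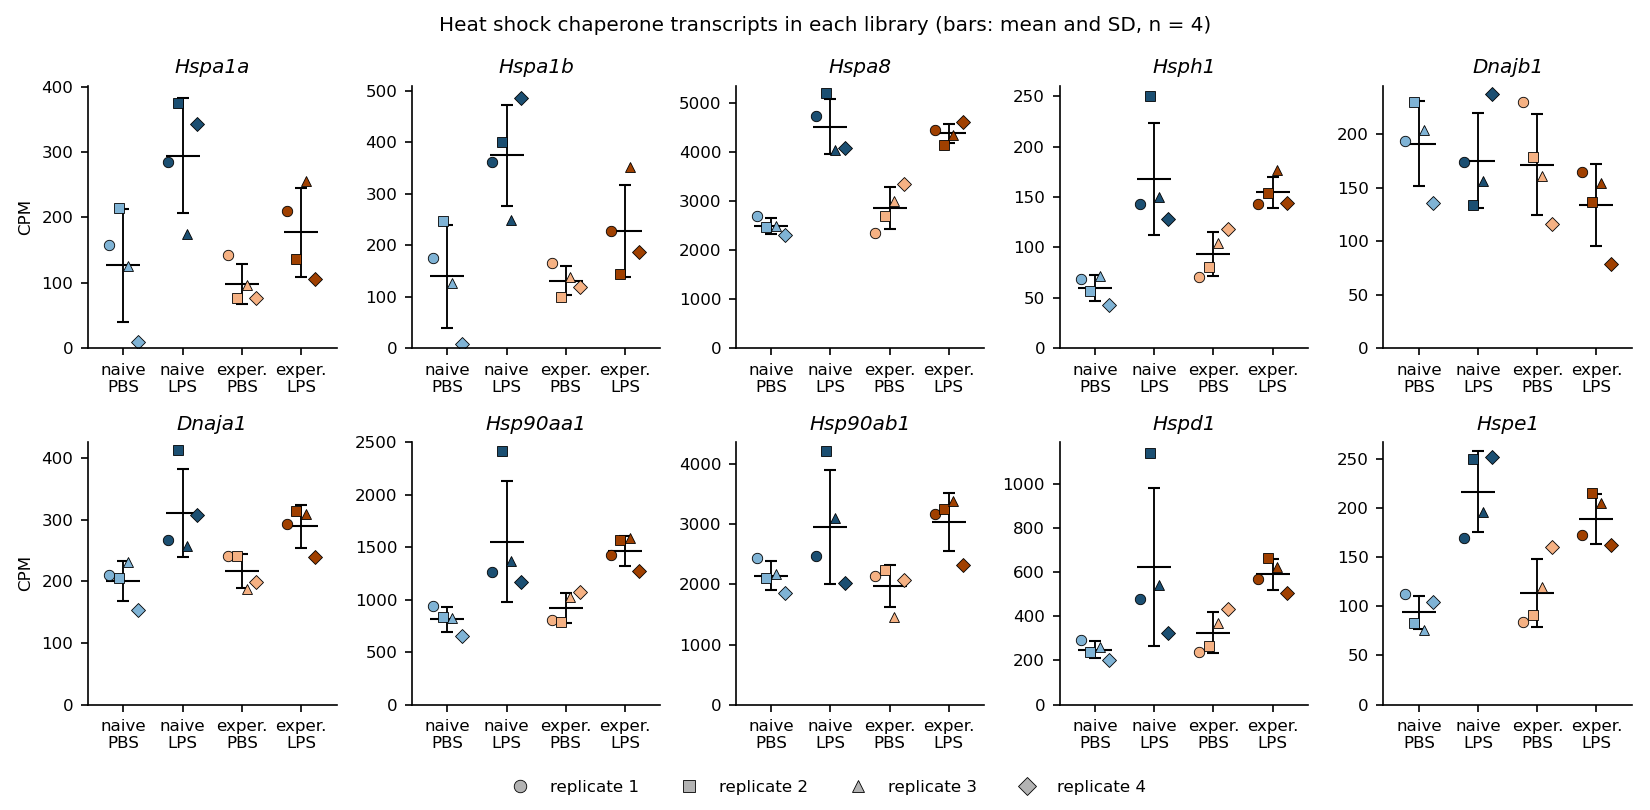
Level in CPM (read counts scaled to library size) of each of the 10 genes in the 16 libraries, by group, with marker shape for the replicate number, a line at the mean and bars for the SD (n = 4). Hspa8, Hsph1, Hsp90aa1, Hspd1 and Hspe1 sit higher in every LPS library than in any PBS library of the same history, Dnajb1 does not, and the square of the naive LPS group stands high for Hsp90aa1 and Hspd1.

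After LPS a majority of the chaperone genes were higher in naive HSPCs. Of the 10 genes, 6 rose and 0 fell in edgeR's quasi-likelihood fit, called where the adjusted p (Benjamini-Hochberg) was under 0.05, against 9.81% of all genes tested called higher and 11.9% called lower. The 6 were Hspa8, Hsph1, Dnaja1, Hsp90aa1, Hspd1 and Hspe1, with changes from 0.63 to 1.48 on the log2 scale. The median log2 change was 1.07 over the 10 genes and 0.02 over all genes tested. In 7 of the 10 every LPS library was above every PBS library, as it was for 12.5% of all genes tested. In experienced HSPCs 4 of the 10 rose (Hspa8, Hsph1, Hsp90aa1 and Hspe1) and 0 fell, against 4.52% of all genes called higher and 8.26% called lower. All 4 were among the 6 of the naive mice. The median was 0.70 over the 10 genes and −0.02 over all genes. In 6 of the 10 every LPS library was above every PBS library, as it was for 6.45% of all genes. The samples are bulk RNA, so fewer cells of a type and less RNA per cell cannot be told apart.

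The count in naive mice was 6 or 7 whichever library was left out, 6 by DESeq2 and 4 by limma on log2(TPM + 1). Of all genes, 1490 were called higher there with all libraries, 768 to 2184 with 1 left out, 1924 by DESeq2 and 374 by limma. The count of chaperones in experienced mice ran from 0 to 7. It was 0 without experienced PBS replicate 1 or replicate 2, 1 without experienced LPS replicate 2 or replicate 3, 2 without experienced LPS replicate 1, and 7 without experienced LPS replicate 4 or naive LPS replicate 2. Without the 2 libraries over 5% mitochondrial counts, 6 rose. The calls over all genes moved as well. In experienced mice 686 genes were called higher with all libraries and 1559 without those 2. Without experienced PBS replicate 1 or 2 it was 302 or 321 genes. Without experienced LPS replicate 1, 2 or 3 it was 328, 361 or 393. Without experienced LPS replicate 4 it was 1456, and without naive LPS replicate 2 it was 1085.

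Transcripts of other cells and of the gate also differed between PBS and LPS libraries. The summed level of 12 HSPC genes was 1248 to 1532 TPM in naive PBS and 841 to 1219 in naive LPS libraries, and 1099 to 1562 and 893 to 1032 in experienced mice. The sum of 7 basophil and mast cell genes was 34.0 to 66.4 TPM in naive PBS and 249 to 552 in naive LPS libraries, and 37.8 to 139 and 184 to 359 in experienced mice. All 12 and all 7 exceeded 1 TPM in at least 1 library of each group. Of 10 erythroid genes, which summed to 14.3 to 53.9 TPM in naive PBS and 96.0 to 228 in naive LPS libraries, Hba-a1 was at 0 in all naive PBS libraries. In experienced mice the erythroid sums were 31.1 to 244 and 74.2 to 152 TPM. Of 18 handling and immediate early genes, 0 were called higher and 3 lower in naive mice, and 1 higher and 1 lower in experienced mice. For the naive response, edgeR called 9.81% of all tested genes higher and 11.9% lower. For the experienced response these shares were 4.52% higher and 8.26% lower. Whether the 18 genes departed from such shares was not tested. Megakaryocyte genes (7) summed to 177 to 307 and 317 to 332 TPM in naive and 159 to 235 and 301 to 494 TPM in experienced mice. Of 11 genes of neutrophils and their precursors 6 to 9 exceeded 1 TPM in a group, and they summed to 551 to 1649.6 and 779.7 to 1966 TPM in naive PBS and LPS libraries and to 912 to 2690 and 1064 to 2522 TPM in experienced ones, with Ly6g at 0 in all naive LPS and all experienced PBS libraries. Of 7 T and NK cell genes 1 to 3 exceeded 1 TPM in a group, with sums of 161 to 179 and 109 to 168 TPM in naive and 133 to 155 and 92.5 to 192 TPM in experienced mice. In experienced LPS libraries only 1 exceeded it, so most of that sum was 1 transcript. With also 1 to 3 genes above 1 TPM, 7 B cell genes summed to 21.6 to 25.5 and 13.7 to 16.7 TPM in naive and 17.4 to 25.6 and 13.5 to 18.9 TPM in experienced mice. Likewise 8 stroma and endothelium genes summed to 41.6 to 52.1 and 23.5 to 36.3 TPM, and 39.4 to 66.4 and 26.9 to 43.8 TPM. The part of these in the chaperone results was not tested.

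Hsp70 and its cochaperones are described first. Hspa8, the constitutive cytosolic Hsp70 (ENSMUSG00000015656, chr9:40800984-40810087, GRCm38), had 2692, 2467, 2498 and 2315 CPM in naive PBS replicates 1 to 4 and 4736, 5200, 4047 and 4072 CPM in naive LPS replicates 1 to 4. Its experienced values were 2354, 2698, 3003 and 3349 CPM after PBS and 4446, 4136, 4344 and 4606 CPM after LPS. Every LPS library was thus above every PBS library in both histories. The log2 change was 0.86 (SE 0.15, edgeR adjusted p = 0.00125) in naive mice, a fold of 1.81, and 0.62 (SE 0.15, adjusted p = 0.0145) in experienced mice, a fold of 1.54. The call in experienced mice ended without experienced PBS replicate 1 (adjusted p = 0.0591) or replicate 2 (adjusted p = 0.0506). On log2(TPM + 1) limma gave 0.71 and 0.63 with adjusted p of 0.127 and 0.208. The mean transcript length that RSEM assigned to Hspa8 ran from 1381 to 2012 bases between libraries, and TPM divides by that length.

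Hsph1, an Hsp110 protein that recharges Hsp70 by nucleotide exchange (ENSMUSG00000029657, chr5:149614287-149636376), had a fitted change of 1.48 on the log2 scale in naive mice, the highest of the 10 with all libraries in the fit. It had 68.3, 56.7, 71.6 and 43.1 CPM after PBS and 143, 249.7, 149.9 and 128 CPM after LPS, with no overlap. The change (SE 0.22, edgeR adjusted p = 0.000282) was a fold of 2.79 with a 95% interval of 2.02 to 3.86. Without naive LPS replicate 2, its highest library, it was 1.25, below the 1.40 fitted for Hspa1b, which did not pass. The experienced groups had 70.3, 80.3, 104 and 118 CPM after PBS and 143, 154, 177 and 144 CPM after LPS, again without overlap. That log2 change was 0.73 (SE 0.22, adjusted p = 0.0360), and it was no longer called without any 1 of experienced LPS replicates 1, 2 and 3 and experienced PBS replicates 1 and 2 (adjusted p = 0.0616 to 0.121) or by limma (0.61, adjusted p = 0.179).

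Hspa1a and Hspa1b, the stress-inducible Hsp70 genes, lie 9951 bases apart on the minus strand of chromosome 17 (ENSMUSG00000091971, chr17:34969190-34972156, and ENSMUSG00000090877, chr17:34956436-34959238). Their transcripts share 52.7% and 55.8% of their 75-base windows, so the division of reads between the copies is uncertain. Both had RSEM counts that were not whole in 16 of 16 libraries, as had Hspa8 and Dnaja1. Such counts do not show which rows shared the reads. Hspa1a had 158, 214, 126 and 9.82 CPM in naive PBS replicates 1 to 4, and Hspa1b had 176, 247, 127 and 8.92 CPM. Replicate 4 was thus more than an order of magnitude below the other 3 libraries of its group. After LPS in naive mice Hspa1a had 285, 375, 175 and 343 CPM and Hspa1b 362, 401, 249 and 485 CPM. The Hspa1b groups did not overlap, and the Hspa1a groups did.

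Neither gene passed the test. The log2 change in naive mice was 1.21 (SE 0.55, edgeR adjusted p = 0.126) for Hspa1a and 1.42 (SE 0.56, adjusted p = 0.0816) for Hspa1b, with 95% intervals of 0.05 to 2.38 and 0.23 to 2.61. With the 2 genes summed it was 1.32 (adjusted p = 0.0984). Without naive PBS replicate 4 the change was 0.84 (adjusted p = 0.0973) for Hspa1a and 1.04 for Hspa1b, and Hspa1b then passed (adjusted p = 0.0354). In experienced mice Hspa1a had 143, 77.3, 96.4 and 76.9 CPM after PBS and 210.2, 136, 256 and 106 CPM after LPS. Hspa1b had 166, 100.2, 138 and 119.7 CPM after PBS and 227, 144, 351 and 186 CPM after LPS. Both overlapped, and the log2 changes of 0.85 (SE 0.55, adjusted p = 0.341) and 0.79 (SE 0.56, adjusted p = 0.384) did not pass.

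**Figure D2:**
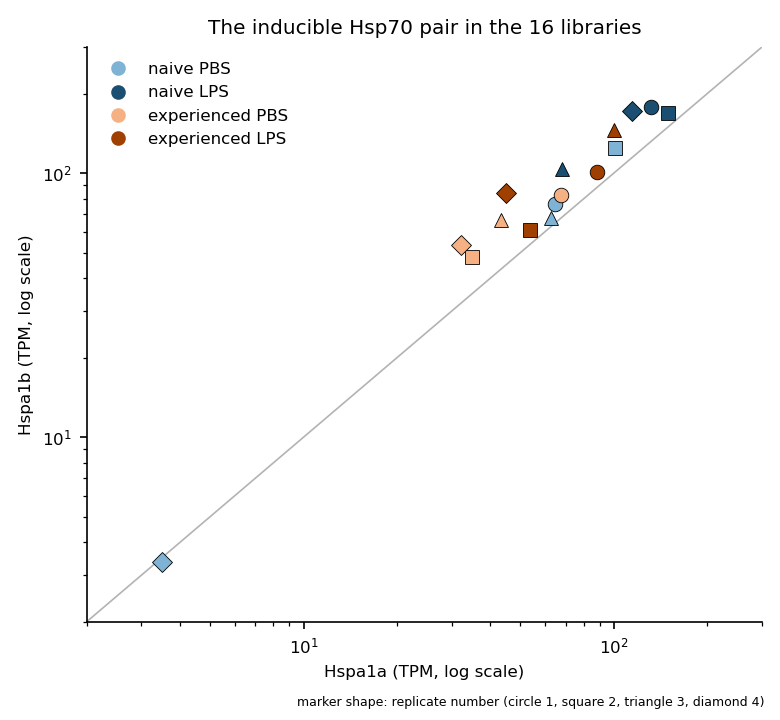
Hspa1a against Hspa1b in TPM on log axes, 1 point per library, with colour for the group, marker shape for the replicate and a line of equality. Of the 16 libraries 15 lie between 32.2 and 149 TPM of Hspa1a, and naive PBS replicate 4 lies apart at 3.49 TPM of Hspa1a and 3.36 TPM of Hspa1b.

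Of the J-domain proteins, which stimulate the ATPase of Hsp70, Dnaja1 rose in naive mice. Dnaja1 (ENSMUSG00000028410, chr4:40722150-40737149) had 210.3, 206, 232 and 154 CPM in naive PBS libraries and 268, 413, 257 and 307 CPM in naive LPS libraries, which did not overlap. It rose by 0.63 on the log2 scale (SE 0.17, edgeR adjusted p = 0.0154), and limma on log2(TPM + 1) gave 0.59 (adjusted p = 0.194). By edgeR the rise was 0.49 (adjusted p = 0.0367) without naive LPS replicate 2. Without naive PBS replicate 4 it was 0.54 (adjusted p = 0.0487). Experienced libraries had 241, 241, 188 and 199 CPM after PBS and 293, 314, 310 and 239.6 CPM after LPS. The lowest LPS library lay just under the highest PBS libraries there, and the change of 0.41 (SE 0.17, adjusted p = 0.120) did not pass. It passed without experienced LPS replicate 4 (0.52, adjusted p = 0.0402) or without naive LPS replicate 2 (0.44, adjusted p = 0.0445).

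Dnajb1, the partner of the inducible Hsp70 in the heat shock response (ENSMUSG00000005483, chr8:83608193-83612653), was not called in either history. It had 194, 229.9, 204 and 136 CPM in naive PBS libraries and 174, 134, 156 and 237 CPM in naive LPS libraries, an overlapping spread. In experienced mice it had 230.4, 179, 161 and 116 CPM after PBS and 165, 137, 154 and 78.9 CPM after LPS. The log2 changes were −0.12 (SE 0.25, edgeR adjusted p = 0.768) and −0.36 (SE 0.25, adjusted p = 0.376), with 95% intervals for the fold of 0.639 to 1.32 and 0.541 to 1.12. The change in naive mice was 0.01 without naive LPS replicate 2.

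Hsp90 has an inducible and a constitutive cytosolic form. Hsp90aa1, the inducible form (ENSMUSG00000021270, chr12:110690605-110702728), had 936, 834, 828 and 652 CPM in naive PBS libraries and 1263, 2414, 1368 and 1172 CPM in naive LPS libraries. Replicate 2 of the LPS group was well above the other 3, and all 4 were above every PBS library. The log2 change was 0.94 (SE 0.21, edgeR adjusted p = 0.00602) with that library and 0.66 (adjusted p = 0.0101) without it. In experienced mice Hsp90aa1 had 803, 792, 1024 and 1070 CPM after PBS and 1425, 1571, 1584 and 1273 CPM after LPS, without overlap. The change of 0.67 (SE 0.21, adjusted p = 0.0488) was close to the threshold, and limma on log2(TPM + 1) gave 0.42 (adjusted p = 0.460). Leaving out any 1 of 9 libraries ended the call: experienced LPS replicates 1, 2 and 3, experienced PBS replicates 1, 2 and 3, naive LPS replicate 3, and naive PBS replicates 2 and 3 (adjusted p = 0.0545 to 0.138). So did upper-quartile scaling (adjusted p = 0.0533) and dropping the low-count filter (adjusted p = 0.0526).

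Hsp90ab1, the constitutive form (ENSMUSG00000023944, chr17:45567775-45573271), had 2446, 2111, 2179 and 1857 CPM in naive PBS libraries and 2479, 4232, 3101 and 2027 CPM in naive LPS libraries. The groups overlapped, and the log2 change of 0.46 (SE 0.22, edgeR adjusted p = 0.140) did not pass. It was 0.61 (adjusted p = 0.0442) without naive LPS replicate 4, the lowest LPS library, and 0.26 (adjusted p = 0.394) without naive LPS replicate 2, the highest. For experienced mice the values were 2146, 2236, 1462 and 2068 CPM after PBS and 3170, 3259, 3398 and 2329 CPM after LPS. These groups did not overlap, yet the change of 0.62 (SE 0.22, adjusted p = 0.0717) missed the threshold. It passed by DESeq2 (0.64, adjusted p = 0.0216) and without experienced LPS replicate 4 (0.75, adjusted p = 0.0226), naive LPS replicate 2 (0.65, adjusted p = 0.0265) or naive LPS replicate 4 (0.64, adjusted p = 0.0383), and without both libraries over 5% mitochondrial counts (0.77, adjusted p = 0.0316).

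The mitochondrial chaperonin genes Hspd1 (Hsp60, the barrel) and Hspe1 (Hsp10, the lid) lie head to head on chromosome 1 and overlap by 112 bases at their starts (ENSMUSG00000025980, chr1:55077835-55088243, minus strand, and ENSMUSG00000073676, chr1:55088132-55091307, plus strand). Hspd1 had 292, 238, 263 and 201 CPM in naive PBS libraries and 479, 1143, 543 and 325 CPM in naive LPS libraries. All 4 LPS libraries were above all 4 PBS libraries, with replicate 2 far above the rest. The log2 change was 1.32 (SE 0.30, edgeR adjusted p = 0.00557), and 0.88 (adjusted p = 0.0115) without naive LPS replicate 2. Hspe1 had 112, 83.1, 76.2 and 104 CPM after PBS and 169, 250, 196 and 252 CPM after LPS, a more even rise of 1.21 (SE 0.20, adjusted p = 0.000840), or 2.31-fold.

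In experienced mice Hspd1 had 239, 265, 368 and 435 CPM after PBS and 568, 663, 625 and 505 CPM after LPS. The groups did not overlap, but the change of 0.85 (SE 0.30, edgeR adjusted p = 0.0669) missed the threshold. It passed by DESeq2 (0.88, adjusted p = 0.0236), and without naive LPS replicate 2 (0.88, adjusted p = 0.00838), naive LPS replicate 4 (0.88, adjusted p = 0.0305), experienced PBS replicate 4 (1.05, adjusted p = 0.0349) or experienced LPS replicate 4 (0.95, adjusted p = 0.0417). It also passed without both libraries over 5% mitochondrial counts (1.12, adjusted p = 0.0263) and in a fit of only the groups compared (0.88, adjusted p = 0.0286). Hspe1 had 83.8, 90.7, 119.8 and 160.3 CPM after PBS and 173, 215, 205 and 162 CPM after LPS, and the rise of 0.73 (SE 0.20, adjusted p = 0.0260) passed. In both genes the 2 highest experienced PBS libraries were replicates 3 and 4. The Hspe1 call ended without any 1 of experienced LPS replicates 2 and 3 and experienced PBS replicates 1 and 2 (adjusted p = 0.0652 to 0.0948), by limma (0.60, adjusted p = 0.0563) or in a fit of only the groups compared (0.75, adjusted p = 0.0544). Rows for processed copies of these genes took few reads, at most 1.75% of the Hspd1 count (Hspd1-ps3) and 0.693% of the Hspe1 count (Hspe1-ps2).

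**Figure D3:**
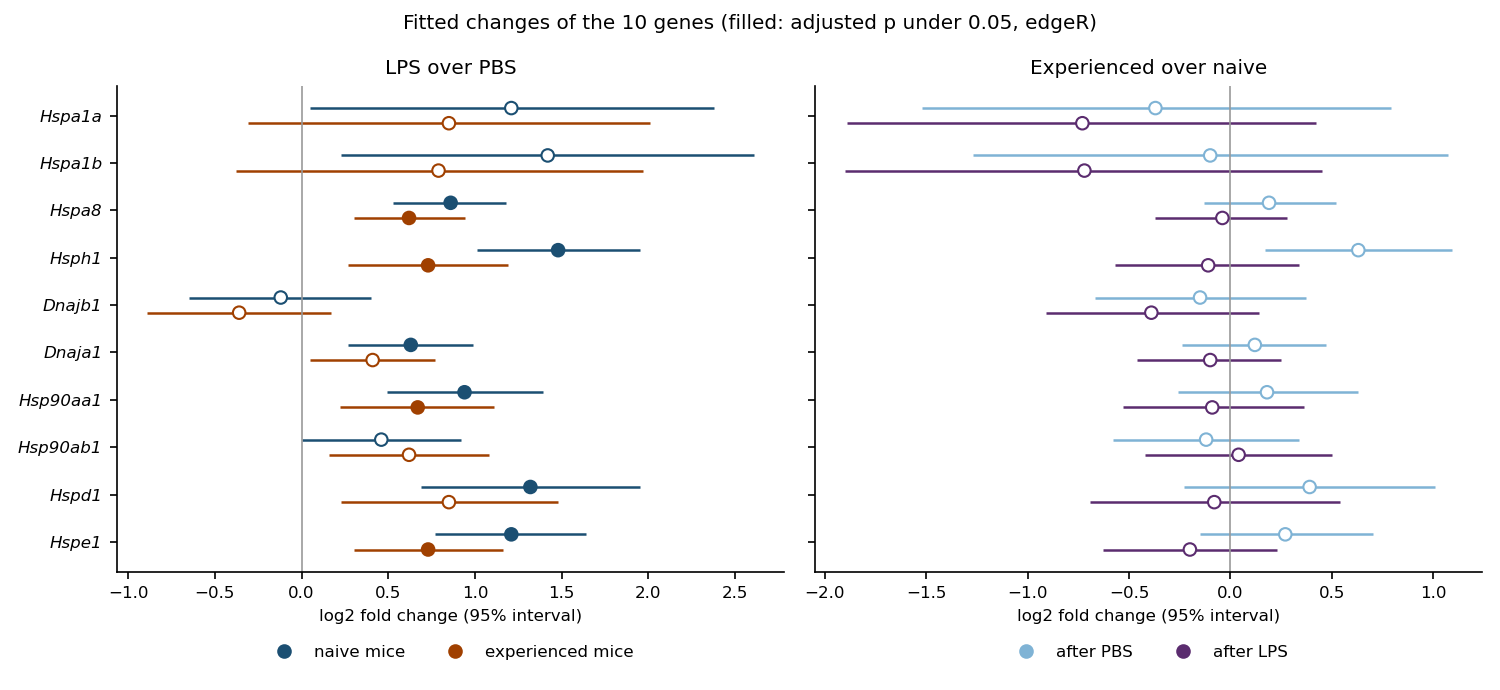
Fitted log2 fold changes with 95% intervals for LPS over PBS in naive and experienced mice (left) and for experienced over naive mice after PBS and after LPS (right); filled points have an edgeR adjusted p under 0.05. Filled points appear for 6 genes in naive and 4 in experienced mice on the left and for 0 genes on the right.

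A past leukaemia left no called difference in these genes. Between experienced and naive mice 0 of the 10 were called after PBS, 0 after LPS and 0 in the interaction, which subtracts the naive from the experienced LPS response. Of all genes edgeR called 0.0% in each of these, with 451, 491 and 695 genes at an unadjusted p under 0.05, and DESeq2 called 2, 2 and 1 genes. The groups did not overlap for 0 of the 10 after PBS and 0 after LPS, against 4.04% and 1.62% of all genes tested, counted in either direction. The 95% intervals bound the difference best for Hspa8, at 0.914- to 1.43-fold after PBS and 0.776- to 1.21-fold after LPS. They bound it least for Hspa1a, at 0.349- to 1.72-fold and 0.271- to 1.34-fold, and Hspa1b, at 0.415- to 2.11-fold and 0.269- to 1.37-fold. Differences within these bounds are not excluded.

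Hsph1 was the only member with an unadjusted p under 0.05 in these comparisons. After PBS it had 93.1 ± 21.7 CPM (SD, n = 4) in experienced and 59.9 ± 12.9 CPM in naive mice. The ranges met, with 70.3 CPM as the lowest experienced and 71.6 CPM as the highest naive library. The log2 difference was 0.63 (SE 0.22, unadjusted p = 0.00993, edgeR adjusted p = 0.988). After LPS the means were 155 ± 16.1 and 168 ± 55.5 CPM, a difference of −0.11 (SE 0.22). Its interaction was −0.75 (SE 0.31, unadjusted p = 0.0262, adjusted p = 0.884), and its LPS responses in the 2 histories were therefore not shown to differ. The naive PBS libraries enter both the response of naive mice and the resting comparison.

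The interaction was negative for 9 of the 10 genes, with a median of −0.32 against −0.03 over all genes tested, of which 46.8% were above 0. Hsp90ab1 was the exception at 0.16 (SE 0.31). Without naive LPS replicate 2 it was 0.03 for Hsp90aa1 and 0.01 for Hspd1, and without naive PBS replicate 4 it was 0.04 for Hspa1a. These 3 signs thus rested on 1 library each.

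Partner genes were compared within a library as log2 ratios of TPM, by two-sided exact permutation tests over the 70 arrangements of 4 against 4 libraries. The smallest p such a test can give is 0.0286, and 0 of 16 ratio tests passed after adjustment. Tests at that smallest p had an adjusted p of 0.152, so passing was hardly possible. The 0 is therefore no evidence that ratios were equal. Hsp90aa1 over Hsp90ab1 was 0.611, 0.60, 0.552 and 0.461 in naive PBS and 0.765, 1.18, 0.695 and 0.952 in naive LPS libraries, as plain ratios. The 4 LPS values were above the 4 PBS values, a log2 difference of 0.67 (exact permutation p = 0.0286, adjusted 0.152), or 0.47 from expected counts, which do not divide by length. In experienced mice the ratio was 0.594, 0.585, 1.02 and 0.772 after PBS and 0.623, 0.730, 0.705 and 0.767 after LPS, which overlapped (log2 difference −0.04).

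Dnajb1 over Dnaja1 was 0.681, 0.857, 0.661 and 0.725 in naive PBS and 0.485, 0.194, 0.493 and 0.568 in naive LPS libraries. Every LPS value was lower, by 0.85 on average on the log2 scale (difference −0.85, exact permutation p = 0.0286, adjusted 0.152). Without naive LPS replicate 2 the difference was −0.50. In experienced mice the difference was −0.87 with overlapping groups (exact permutation p = 0.0571, adjusted 0.229). Hspd1 over Hspe1 overlapped in naive mice (log2 difference −0.05, exact permutation p = 0.914), where naive LPS libraries ran from 0.357 to 1.34. In experienced mice it was 0.751 to 0.841 after PBS and 0.858 to 0.927 after LPS, a log2 difference of 0.13 (exact permutation p = 0.0286, adjusted 0.152). The summed Hspa1 genes over Hspa8 ran from 0.0461 to 0.0881 in 3 naive PBS libraries, with replicate 4 at 0.00502, and from 0.0585 to 0.107 in naive LPS libraries (log2 difference 1.15, exact permutation p = 0.257, adjusted 0.514). Without naive PBS replicate 4 the difference was 0.23.

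**Figure D4:**
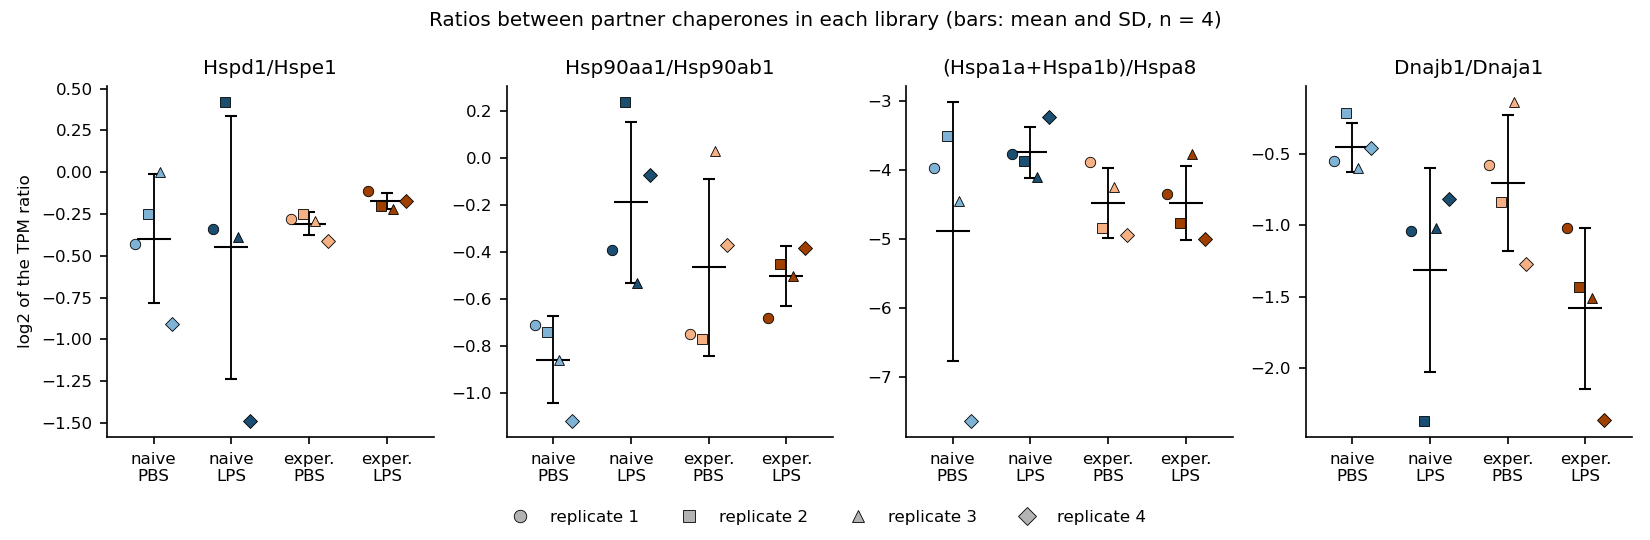
The log2 TPM ratio of 4 partner pairs in each library, by group, with marker shape for the replicate, a line at the mean and bars for the SD (n = 4). The Hsp90aa1/Hsp90ab1 ratios of naive LPS libraries all lie above those of naive PBS libraries, the Dnajb1/Dnaja1 ratios of naive LPS libraries all lie below, and naive PBS replicate 4 stands apart at −7.64 for the summed Hspa1 genes over Hspa8.

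Genes of the wider chaperone network were called higher more often than lower after LPS by edgeR, but not by limma. Of 87 listed genes 79 were tested, of which 20 were called higher and 3 lower in naive mice and 14 higher and 2 lower in experienced mice, with 8 higher in both. By limma on log2(TPM + 1) it was 1 higher and 1 lower in naive and 0 higher and 3 lower in experienced mice. Over all genes limma also called fewer higher than lower, with 374 against 1506 in naive and 178 against 954 in experienced mice. Of all genes edgeR called 9.81% higher and 11.9% lower in naive mice, and 4.52% higher and 8.26% lower in experienced mice. The network's median log2 change by edgeR was 0.36 in naive and 0.33 in experienced mice, against 0.02 and −0.02 over all genes tested. In naive mice the count was 12 without naive PBS replicate 2, 13 without naive PBS replicate 4 and 14 without naive LPS replicate 2. It was 33 without naive LPS replicate 4 or experienced LPS replicate 4. All genes called higher numbered 768 without naive PBS replicate 2, 902 without its replicate 4 and 1183 without naive LPS replicate 2. They numbered 1773 without naive LPS replicate 4 and 2184 without experienced LPS replicate 4. In experienced mice the network count was 3 without experienced PBS replicate 1, 5 without experienced PBS replicate 2 and 6 without experienced LPS replicate 1. It was 7 without replicate 2 or 3 of that LPS group, 25 without its replicate 4 and 29 without naive LPS replicate 2. The counts of all genes under these settings are given with the 10 chaperones.

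The cytosolic chaperonin CCT, which folds actin and tubulin, and prefoldin, which delivers clients to it, were the list with the most calls. Against 9.81% and 4.52% of all genes called higher, 7 of its 14 tested genes rose in naive and 9 in experienced mice. On this list 0 genes were lower, and the list medians were 0.58 and 0.62. Among them Cct8 went from 215 to 355 CPM on average in naive mice (0.72, SE 0.18, edgeR adjusted p = 0.0111) and from 237 to 387 CPM in experienced mice (0.71, SE 0.18, adjusted p = 0.0180). Tcp1 changed by 0.61 (SE 0.16) and 0.56 (SE 0.16), and Pfdn4, at 7.54 CPM in naive PBS libraries, by 1.21 (SE 0.28) and 1.02 (SE 0.28). All 3 passed in both histories by edgeR, and by limma on log2(TPM + 1) none of the network passed upward in experienced mice and 1 gene did in naive mice.

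Of 13 Hsp90 cochaperones 4 rose in naive and 1 in experienced mice, against 9.81% and 4.52% of all genes called higher. Ppid, a cyclophilin of the Hsp90 complex, changed by 1.18 (SE 0.25, edgeR adjusted p = 0.00411) in naive and by 0.47 (SE 0.25, adjusted p = 0.239) in experienced mice. Ahsa1, which activates the Hsp90 ATPase, changed by 1.14 (SE 0.30, adjusted p = 0.0145) and 0.76 (SE 0.30, adjusted p = 0.106). Chordc1 changed by 1.01 (SE 0.24, adjusted p = 0.00763) and 0.50 (SE 0.24, adjusted p = 0.181). Naive LPS replicate 2 stood apart from its group for Ahsa1, at 454 CPM, and for Chordc1, at 156 CPM. The gene called in both was Fkbp5, an immunophilin induced by glucocorticoids, at 0.55 and 0.73, which lies outside the rule for named genes and was picked after its values were seen.

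Among 10 genes of Hsp70 nucleotide exchange and client handover 2 rose in naive mice: Stip1, the adaptor between Hsp70 and Hsp90 (0.88, SE 0.22, edgeR adjusted p = 0.0107), and Bag1, an exchange factor (0.73, SE 0.19, adjusted p = 0.0135). In experienced mice they changed by 0.55 and 0.52 without passing, and 1 gene of that list was called, Bag5 (0.40, adjusted p = 0.0406), which was named after its values were seen. Of 16 other J-domain proteins 3 rose in naive mice, Dnaja2 (0.84, SE 0.23), Dnajc2 (1.13, SE 0.31) and Dnajc21 (1.01, SE 0.27), and 0 in experienced mice, where Dnaja2 was at 0.70 (adjusted p = 0.0501). Naive LPS replicate 2 stood apart from its group for Dnajc2, at 311 CPM, and for Dnajc21, at 60.8 CPM. Of 7 other Hsp70 and Hsp110 genes 3 rose in naive mice, Hspa4, Hspa4l and the mitochondrial Hspa9 (0.75, SE 0.23, adjusted p = 0.0300), and 0 in experienced mice. Hspa12b, an atypical Hsp70 found in endothelium, fell in both, from 17.8 to 6.35 CPM and from 15.3 to 5.46 CPM on average. Of 12 mitochondrial quality control genes 2 rose in naive mice, Hspa9, which is also on the Hsp70 list, and the protease subunit Afg3l2 (0.58, SE 0.14), and 3 in experienced mice.

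Of 5 tested regulators 0 rose and 1 fell in each history, while 11.9% of all genes were called lower in naive and 8.26% in experienced mice. Hsf1, the heat shock factor, averaged 54.4 ± 4.58 CPM (SD, n = 4) in naive PBS and 69.5 ± 12.4 CPM in naive LPS libraries, a log2 change of 0.35 (SE 0.15, edgeR adjusted p = 0.0934) that did not pass. In experienced mice it averaged 59.8 ± 10.3 and 64.7 ± 4.36 CPM (0.11, SE 0.15, adjusted p = 0.668). Hsf2 changed by 0.11 and −0.04 (SE 0.16 and 0.17), Hsf4 by −0.69 and −1.67 (SE 0.60 and 0.59) at under 1 CPM, and Hsbp1, a binding partner of Hsf1, by 0.26 and 0.03 (SE 0.31 in both), and 0 of these passed. Hsf2bp, a meiotic recombination protein, fell in both histories, from 0.928 to 0.127 CPM and from 1.11 to 0.0753 CPM on average. Of 4 small heat shock proteins tested, Hspb8 was called lower in naive mice at 0.659 against 0.0763 CPM.

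**Figure D5:**
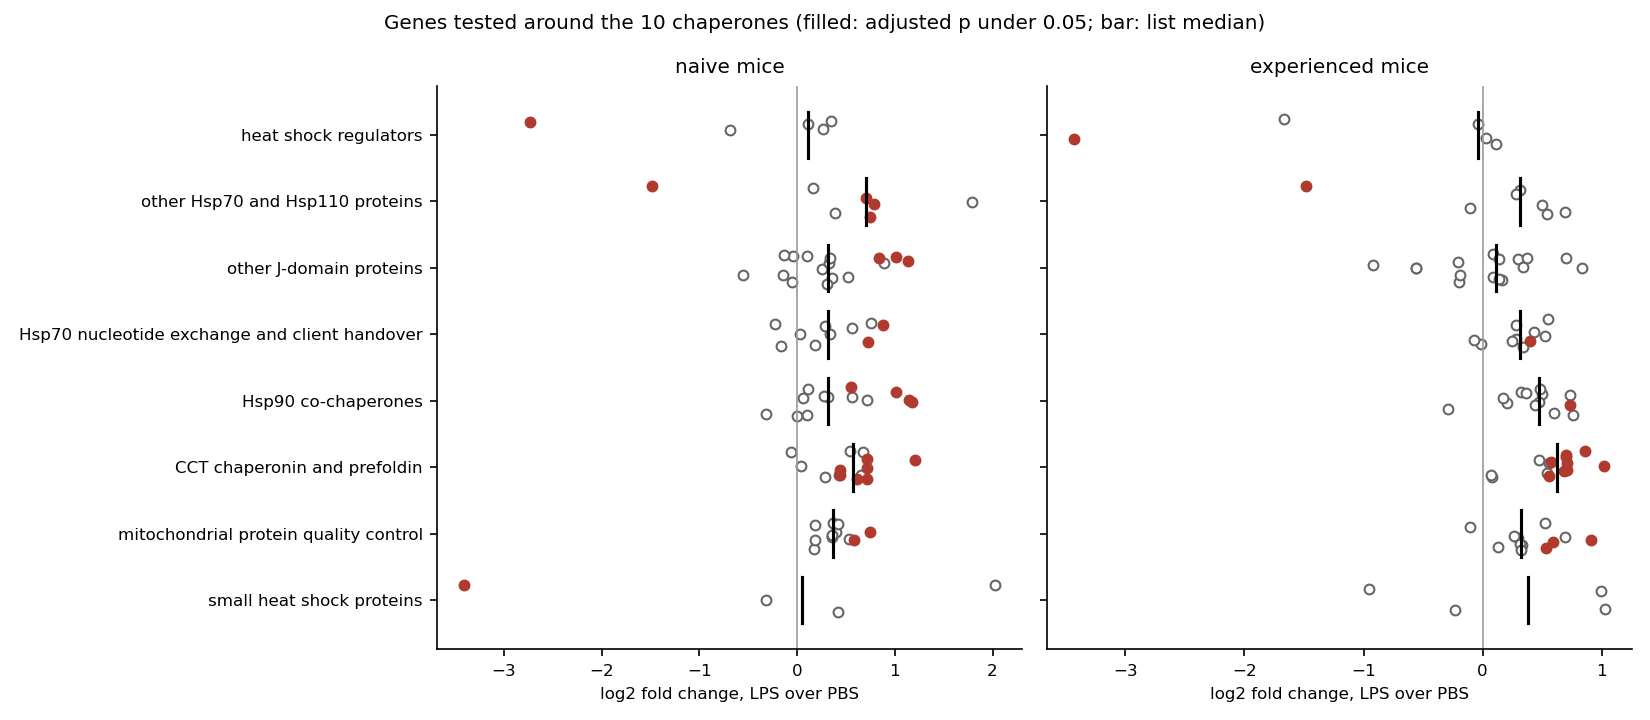
Fitted log2 fold changes, LPS over PBS, of the tested genes on 8 lists around the 10 chaperones, in naive (left) and experienced mice (right), 1 point per gene with filled points for an edgeR adjusted p under 0.05 and a bar at each list's median. The CCT and prefoldin list has 7 filled points on the left and 9 on the right, all above 0, and the filled points of the regulator list lie below 0.

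Outside the members, the 5 genes whose levels followed the chaperones most closely within groups were found by Pearson's r with the mean centred log2 CPM of the 10 members, over 16 libraries after each group's mean was subtracted. They were Id1 (0.92), Klc1 (0.90), Gm10501 (0.87), Gfm2 (0.86) and Gas7 (0.85). Without naive PBS replicate 4 the same r were 0.69, 0.71, 0.83, 0.83 and 0.48, so those of Id1, Klc1 and Gas7 rested in part on that library. They are the highest of all tested genes, screened in libraries that share depth and composition, and carry no test. The members did not follow each other evenly. Against the mean of the other members, r was 0.82 for Hspa1a, 0.75 for Hspa1b, 0.71 for Dnaja1, 0.66 for Hsp90aa1 and 0.65 for Hsph1. It was 0.44 for Hsp90ab1 and for Hspd1, 0.37 for Hspa8, 0.27 for Dnajb1 and 0.04 for Hspe1. Each Hspa1 gene is part of the other's mean, and the pair, between which the division of reads is uncertain, had an r of 0.98. Hspa1a alone had an r of 0.17 with Hspa8 and −0.15 with Hspe1, but 0.64 with Dnaja1. These r include naive PBS replicate 4, where both Hspa1 genes were far lower.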

How the data were processed

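RNA-seq of 16 biological replicates was analysed from 1 gene table each; the labels list 2 technical replicates of each, whose merging the sources used here leave unstated. Per the submitters' processing notes the tools were Trim Galore 0.6.7, STAR 2.7.10a and RSEM 1.3.1, with the build GRCm38. Strand setting and annotation release are not stated there. The labels name a droplet library kit beside a column RNA kit; with 1 value per gene and replicate, the tables were treated as bulk. The deposited expected counts are RSEM estimates that need not be whole, and the deposited TPM are scaled for length, per the file headers.

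Expected counts were rounded, filtered by group (15186 genes, 99.928% of counts), scaled by TMM and fitted with edgeR 4.0.16 quasi-likelihood (R 4.3.3), 1 mean per group over 16 libraries, with Benjamini-Hochberg adjustment over all genes tested. SE is the log2 change divided by the root of F. CPM and ratios were computed from the same tables, and GENCODE (GRCm38) supplied symbols and coordinates. In simulated counts without outlying libraries, 50 genes each were changed 1.5-, 2-, 4- and 8-fold together. No other gene was changed, whereas edgeR called 1490 genes higher and 1803 lower after LPS in naive mice. Recovery in the LPS fits themselves may therefore differ. Of the 50 changed 2-fold, 54% were recovered for LPS in naive mice (14963 genes), 46% for experienced against naive PBS (14967 genes) and 12% for the interaction (14942 genes).

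The 10 members and all lists were chosen with earlier results of these data known. Named genes were all members, all tested heat shock regulators, in each other list the 3 called genes with the lowest adjusted p for LPS in naive mice, member pseudogenes and the 5 genes most like the members. Of the listed network genes 8 were not tested. Nothing in the labels ties a replicate to its own mouse: p-values then cover only the spread between these samples, which may be technical. The alternatives were DESeq2 1.42.0, limma 3.58.1 on log2(TPM + 1), other scaling factors, no low-count filter, only the groups compared, a replicate block, each library left out, libraries over 5% mitochondrial counts left out, Hspa1a and Hspa1b summed, and ratios from expected counts.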

Additional observations from a re-analysis of the deposited data

Results flagged for a closer look

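In 144 groups of 4 libraries (10 chaperones, 22 network genes and 4 ratios, 4 groups each), 7 had a library whose gap to its nearest neighbour exceeded Dixon's 95% critical share of the group's range, where chance gives about 1 in 20. In naive LPS replicate 2 these were Hsp90aa1 at 2414 CPM (0.843 of the range), Dnajc21 at 60.8 CPM (0.917), Dnajc2 at 311 CPM (0.840), Chordc1 at 156 CPM (0.878), Ahsa1 at 454 CPM (0.851) and the log2 ratio of Dnajb1 over Dnaja1 at −2.37 (0.853). In experienced LPS replicate 4 it was Hsbp1 at 121 CPM (0.989).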

How the results depend on the processing

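One alternative was run at a time; limma on log2(TPM + 1) changes the measure and the test together, and DESeq2 the fit and the scaling. All genes called higher after LPS numbered 1490 in naive mice, against 374 by limma, 2426 without the libraries over 5% mitochondrial counts and 768 to 2184 with 1 library left out. In experienced mice they numbered 686, against 1178 by DESeq2, 178 by limma, 1559 without those libraries and 302 to 1456 with 1 left out. Genes called lower there numbered 1254, against 700 in a fit of only the groups compared and 712 to 1701 with 1 left out. Between experienced and naive mice the 0 became 2 by DESeq2 and 1 by limma after PBS, 2 by DESeq2 and 1 without the libraries over 5% mitochondrial counts after LPS, and 1 by DESeq2 in the interaction.

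Network genes called higher numbered 20 in naive mice, against 1 by limma, 34 without the libraries over 5% mitochondrial counts and 12 to 33 with 1 left out. In experienced mice they numbered 14, against 26 by DESeq2, 0 by limma, 25 without those libraries and 3 to 29 with 1 left out. Those called lower became 1 by limma in naive mice and 1 in a fit of only the groups compared in experienced mice. Chaperones called higher in experienced mice numbered 4, against 0 by limma and 0 to 7 with 1 left out.

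Same-numbered libraries correlated at −0.208 to 0.321. For LPS in experienced mice 3 of 4 pairs were over 0.1 and 1 was at −0.123, and since not every pair was, the numbers were not taken as pairs. With a replicate block 2 chaperones were called higher in experienced mice, with Hsp90aa1 (0.65, adjusted p = 0.0688) and Hsph1 (0.72, adjusted p = 0.0554) no longer called, and the Hspa1b difference after PBS was 0.03.

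By limma the sign reversed between experienced and naive mice for Hspa1a (0.23) and Hspa1b (0.60) after PBS and Hspa8 (0.03) and Hspd1 (0.13) after LPS, and the ratio Hsp90aa1/Hsp90ab1 for LPS in experienced mice reversed from expected counts (0.05). With 1 library left out, log2 differences between experienced and naive mice crossed 0 after LPS for Dnaja1 (−0.19 to 0.07), Hsp90aa1 (−0.19 to 0.21), Hsp90ab1 (−0.10 to 0.26), Hspa8 (−0.09 to 0.04), Hspd1 (−0.28 to 0.40) and Hsph1 (−0.22 to 0.14). After PBS they did so for Hspa1a (−0.77 to 0.01) and Hspa1b (−0.50 to 0.33). The interaction crossed 0 for Hsp90aa1 (−0.36 to 0.03), Hspa1a (−0.74 to 0.04) and Hspd1 (−0.66 to 0.01), and the LPS change of Dnajb1 in naive mice ran from −0.30 to 0.01. The log2 ratio (Hspa1a+Hspa1b)/Hspa8 ran from −0.23 to 0.20 for LPS in experienced mice and from −0.51 to 0.87 for experienced against naive PBS. Hsp90aa1/Hsp90ab1 ran from −0.14 to 0.13 for LPS in experienced mice. Hspd1/Hspe1 ran from −0.34 to 0.29 for LPS in naive mice, and from −0.08 to 0.56 after LPS and −0.08 to 0.22 after PBS for experienced against naive mice. The cause was not tested.

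Depth per library was 7718857 to 22264672 expected counts, with 4 libraries a group.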
